A study of Mus musculus with 22 samples.

Results

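The interferon-induced genes described here were Irf7, Isg15, Ifit1, Ifit3, Oasl2, Gbp2, Iigp1, Igtp and Gvin1, read in bulk RNA-seq of thymus, cerebrum and cerebellum from Tol mice and wild-type (WT) littermates. They were taken by name, with earlier results of these data known, and made up 9 of the 34585 rows in each organ's count table. The question was whether carrying a foreign transgene went with a rise of interferon-induced transcripts, a sign of immune reaction, in any of the organs. Tol mice were heterozygous for a transgene that strings fragments of commonly used reporter and modifier proteins into a single shuffled open reading frame, driven by the broadly active CAG promoter and placed 3′ of Col1a1 by cassette exchange in C57BL/6J embryonic stem cells. WT littermates lacked it, and both groups were C57BL/6 mice of 7 to 14 weeks. There were 4 Tol and 4 WT libraries of thymus, 4 and 4 of cerebrum, and 2 and 4 of cerebellum, 22 in all, made from frozen tissue. Libraries of different organs may come from the same mice, which the labels do not tie together, and the comparisons between organs treated them as independent.

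Interferons are secreted proteins that cells release on sensing viral nucleic acid or, for interferon gamma, that activated lymphocytes release. Their receptors signal through JAK kinases and STAT factors, which switch on a large set of effector genes within hours, so the transcripts of these genes serve as a sensitive readout of innate immune activity. IRF7 is the transcription factor that amplifies the type I response. ISG15 is a ubiquitin-like modifier, IFIT1 and IFIT3 bind foreign RNA and OASL2 belongs to the oligoadenylate synthetase family. GBP2, IIGP1 (an immunity-related GTPase also known as Irga6), IGTP (Irgm3) and GVIN1 are GTPases, induced most strongly by interferon gamma, and several of them act on the membrane around intracellular pathogens. In the thymus a steady interferon signal is known in medullary cells, whereas healthy brain holds little.

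Type I interferon signals reach many of these genes through the interferon-stimulated response element, and its letters in the members' promoters are shown here. The members were chosen by name as interferon-induced genes, so a high share of these letters was likely from the choice and is no independent result. RefSeq promoters (GRCm38.p6, 250 bases before to 50 after the start) were found for 7 of the 9 members, all except Iigp1 and Gvin1. The letters GAAA, any 2 bases and GAAA, searched on both strands with overlapping matches joined, were found in 5 of those 7, against 3.46% of 27025 genes with a promoter. The stretches are given 5′ to 3′ along the strand of the gene, with the matched letters in capitals.
Isg15: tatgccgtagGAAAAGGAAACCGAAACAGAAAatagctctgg
Ifit1: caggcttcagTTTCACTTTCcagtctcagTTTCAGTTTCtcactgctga
Ifit3: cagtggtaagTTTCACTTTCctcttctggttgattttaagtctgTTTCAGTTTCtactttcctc
Gbp2: actcttttagTTTCACTTTCactgtcttaa
Igtp: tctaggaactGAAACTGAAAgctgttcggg
They lie upstream of the RefSeq start at chr4:156200865-156200906 (minus strand, Isg15), chr19:34640775-34640823 (plus, Ifit1), chr19:34583363-34583426 (plus, Ifit3), chr3:142620594-142620623 (plus, Gbp2) and chr11:58199512-58199541 (plus, Igtp). Isg15 held 3 overlapping matches, Ifit1 and Ifit3 held 2 each, and Gbp2 and Igtp held 1. The promoters of Irf7 and Oasl2 did not hold these letters in the window. The letters TTCNNNGAA, the core of the gamma-activated site, were found in 1 of the 7, Igtp, against 8.13% of the same 27025 genes. The first motif was also found in 11 of 14 promoters of the other interferon-inducible GTPases and in 13 of 30 of the other type I interferon-induced genes. A match is a description of the letters and not a measured binding site.

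In the GRCm38 annotation Irf7 spans chr7:141262706-141266481 on the minus strand, where part of an exon overlaps Phrf1 on the opposite strand. Isg15 spans chr4:156199424-156200818 (minus), Oasl2 chr5:114896936-114912234 (plus) and Gbp2 chr3:142620602-142638008 (plus). Ifit1 and Ifit3 are neighbours in a cluster at chr19:34640871-34650009 and chr19:34583531-34588731, both on the plus strand. Igtp spans chr11:58199556-58207591 (plus) and overlaps an exon of Irgm2, another GTPase gene, and Gvin1 spans chr7:106156556-106215326 (minus).

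Each library held between 14543698 and 34776973 counts. The Tol transcript matched the genotype labels in all 22 libraries, with 19.8 to 25.4 CPM (counts scaled to the library total) in thymus, 147 to 174 CPM in cerebrum and 191 and 140 CPM in cerebellum of Tol mice, and at most 0.12 CPM in any WT library. Marker genes matched the organ labels in all libraries except 1. The Tol cerebellum replicate 2 went against its label, since 390 CPM of cerebellar neuron markers were summed in it, against 7490 CPM in Tol replicate 1 and 3160 to 6890 CPM in the WT cerebellum libraries. Choroid plexus markers summed to 1340 and 4810 CPM in the WT cerebellum replicates 2 and 4 and to 20.1 to 35.1 CPM in the other cerebellum libraries. In bulk tissue, fewer cells of a type and less RNA per cell cannot be told apart.

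All 9 members were expressed at a far higher level in WT thymus than in WT brain. The levels, in CPM scaled over the 22 libraries, were 55.8 ± 8.95 for Irf7, 20.8 ± 2.16 for Isg15, 36.0 ± 1.17 for Ifit1, 25.5 ± 3.11 for Ifit3 and 70.3 ± 5.93 for Oasl2 in WT thymus (mean ± SD, n = 4). Among the GTPases they were 52.2 ± 3.43 for Gbp2, 30.4 ± 4.14 for Iigp1, 101 ± 10.5 for Igtp and 59.6 ± 5.53 for Gvin1. In WT cerebrum they were 2.57 ± 0.233 for Irf7, 1.85 ± 0.301 for Isg15, 2.58 ± 0.707 for Ifit1, 6.75 ± 0.489 for Ifit3, 3.3 ± 0.614 for Oasl2, 3.57 ± 0.779 for Gbp2, 1.37 ± 0.389 for Iigp1, 5.03 ± 2.15 for Igtp and 11.2 ± 9.53 for Gvin1. No WT brain library reached the lowest WT thymus library for any member, a separation seen in 42.3% of all genes against cerebrum and in 40.1% against cerebellum. Levels in WT cerebellum ran from 1.49 ± 0.587 CPM for Isg15 to 12.4 ± 7.92 CPM for Gvin1.

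**Figure D1:**
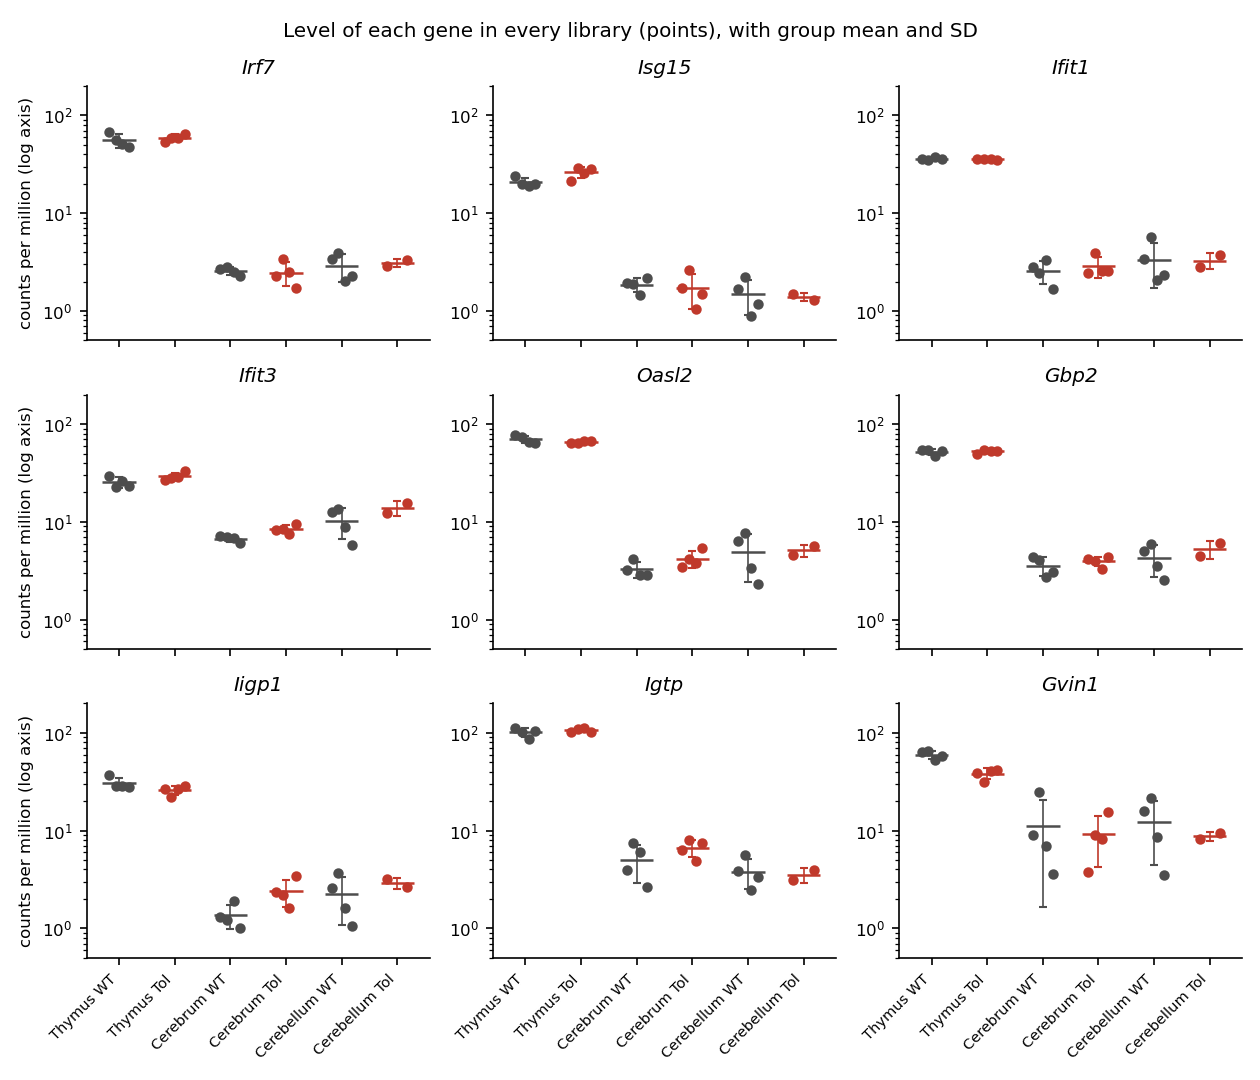
Level of each member in CPM (log axis) for every library, by organ and genotype (grey, WT, and red, Tol), with the group mean and SD. Each gene sits higher in the thymus libraries than in any brain library, and Gvin1 is the gene whose thymus Tol libraries (31.1 to 42.1) all lie under the WT ones (52.5 to 64.8).

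Per length, as CPM per kilobase of the longest coding transcript, the order of the levels differed between thymus and brain. In WT thymus Igtp was highest at 50.2 ± 5.2, followed by Isg15 at 27.5 ± 2.86, Irf7 at 24.9 ± 4.0, Oasl2 at 22.5 ± 1.9, Gbp2 at 20.8 ± 1.36, Ifit3 at 14.6 ± 1.78, Ifit1 at 13.6 ± 0.44, Iigp1 at 9.74 ± 1.33 and Gvin1 at 6.62 ± 0.614. Isg15, Irf7, Oasl2 and Gbp2 each overlapped their neighbour in that order, as did Ifit3 and Ifit1, and the other neighbours did not overlap. In WT cerebrum Ifit3 led at 3.87 CPM per kilobase, Igtp and Isg15 followed at 2.49 and 2.45 and Iigp1 was last at 0.438, and the steps with no overlap were those from Isg15 to Gbp2 and from Ifit1 to Iigp1. In WT cerebellum Ifit3 was again first at 5.89 ± 2.1 CPM per kilobase, apart from Isg15 at 1.97, and no other neighbours were separate. Ifit3, which came after 5 other members in thymus, was the highest of the members in both brain regions. Gvin1 and Ifit3 have close copies, described below, so their places hold for the counts as divided among those copies. In WT thymus the level was 59.6 CPM for Gvin1 alone and 95.6 CPM summed with its near-identical copy Gm4070.

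The organ difference passed the test for every member. In WT thymus against WT cerebrum (edgeR quasi-likelihood test across 17413 genes, Benjamini-Hochberg adjustment), 9 of 9 members were called higher, against 43.4% of all genes called higher, and 84.3% were called in either direction. The log2 fold changes were 4.46 for Irf7, 3.51 for Isg15, 3.82 for Ifit1, 1.94 for Ifit3, 4.44 for Oasl2, 3.89 for Gbp2, 4.49 for Iigp1, 4.36 for Igtp and 2.44 for Gvin1, with SE of 0.21 to 0.56. The highest adjusted p of the 9 was 0.00129, for Gvin1, and the median log2 fold change was 3.89 against 0.059 over all genes. Against WT cerebellum, 9 of 9 were also higher (41.8% of all genes called higher), with log2 fold changes from 1.34 for Ifit3 to 4.77 for Igtp. In both comparisons, which share the thymus libraries, Ifit3 and Gvin1 were the least thymus-biased members of the main fit. Gvin1 has near-identical copies, described below, so its place depends on how reads were divided among them. Over the alternatives other than leaving out each library, its log2 fold change lay between 2.42 and 3.71 against cerebrum. Against cerebellum it lay between 2.14 and 3.44.

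The brain regions differed less. Of the 9 members, 1 was called between WT cerebellum and WT cerebrum, against 51.1% of all genes. Ifit3 was at 12.7, 13.7, 8.92 and 5.76 CPM in the 4 WT cerebellum libraries and at 7.16, 7.01, 6.79 and 6.05 CPM in the 4 of cerebrum. The groups overlapped through cerebellum replicate 4. The log2 fold change was 0.60 ± 0.22 (SE, adjusted p = 0.0399 by edgeR's test), 0.67 (adjusted p = 0.00551) without the cerebellum libraries rich in choroid plexus markers, and 0.64 (adjusted p = 0.0134) when Ifit3 was counted together with its close copy Ifit3b. The call did not hold with another scaling or in most fits that left out a library, and without cerebellum replicate 4 it was joined by Oasl2 and Iigp1.

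The rest of the pathway was also mostly higher in WT thymus than in WT cerebrum. Among genes for interferon receptors and their signalling, 17 of 18 were called higher, with a median log2 fold change of 2.40, led by Socs1 (6.83), a feedback inhibitor of JAK kinases, and Usp18 (5.57), which removes ISG15 from proteins. Of 14 nucleic acid sensor genes, 12 were higher and 2 lower, with Zbp1 (8.47) and Dhx58 (3.98) at the top and Tlr3 (-1.28) and Adar (-0.97), an RNA editing enzyme, lower in thymus. Of 40 other type I interferon-induced genes, 38 were higher and 2 lower, with a median of 3.99, led by Phf11b (7.38) and the exonuclease gene Isg20 (6.91), and with Cmpk2 (-1.28) and Znfx1 (-0.36) lower. All 22 other interferon-inducible GTPases tested were higher, with a median of 4.08, led by Gbp8 (9.81) and Gm1966 (7.73). The interferon genes themselves could not be tested, since 0 of 11 passed the count filter. Of these, 9 had under 3 counts in every thymus library, Ifng had 5 to 10 and Ifnl2 1 to 4, and all 11 had under 3 counts in every brain library.

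**Figure D2:**
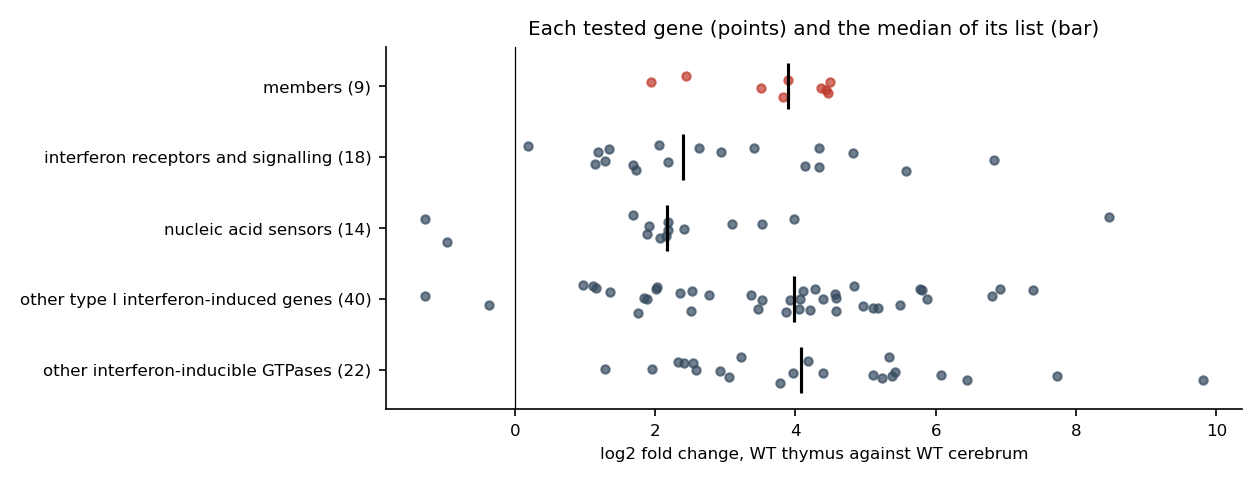
Log2 fold change of WT thymus against WT cerebrum for each tested gene of the members and of the 4 pathway lists with tested genes (points), with the median of each list (bar) and its number of genes in parentheses. The 9 members lie between 1.94 and 4.49, inside the span of the other interferon-inducible GTPases and of the other type I interferon-induced genes.

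In thymus, the members' levels in Tol mice stayed close to those in WT mice, with a single exception. By edgeR's test across 16248 genes, 1 of the 9 members was called, against 0.0985% of all genes (16 genes), and 2 of 9 had an unadjusted p under 0.05, against 24.4% of all genes. The members' log2 fold changes were above 0 for 5 and below 0 for 4, with a median of 0.01 against 0.007 over all genes. The same test called no member higher in Tol thymus.

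Irf7 was at 53.5, 58.4, 59.3 and 65.2 CPM in the Tol thymus libraries and at 68.0, 56.5, 51.3 and 47.4 CPM in those of WT. The Tol values lay inside the WT range, and the log2 fold change was 0.09 with a 95% interval of -0.15 to 0.32. Isg15 was at 21.3, 29.1, 26.0 and 28.3 CPM in Tol mice and at 24.0, 20, 19.1 and 20 CPM in WT. Tol replicates 2, 3 and 4 lay above every WT library and Tol replicate 1 did not. The log2 fold change of Isg15 was 0.33 ± 0.11 (SE, 95% interval 0.09 to 0.57), with an unadjusted p of 0.0111 and an adjusted p of 0.118 in edgeR's test. Without Tol replicate 1 it was 0.43 with an adjusted p of 0.0114, and that fit called 2978 genes in all. Over the alternatives other than leaving out each library, it lay between 0.22 and 0.34, and none of them called Isg15. Log2 fold changes in Tol thymus fell with transcript length, as described below. The transcript of Isg15 is 756 bases long, and the 969 thymus genes in its length class (median 785 bases) had a median log2 fold change of 0.25.

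The RNA-binding effectors gave little. Ifit1, which recognises RNA lacking the host cap methylation, lay between 35.0 and 36.0 CPM in Tol thymus and between 34.7 and 37.5 CPM in WT, and its log2 fold change was -0.02 (95% interval -0.14 to 0.11). That is the narrowest interval among the type I effectors. Ifit3, which binds IFIT1, was at 27.1, 28.1, 29.1 and 33.1 CPM in Tol mice and at 29.4, 22.7, 26.5 and 23.4 CPM in WT, with a log2 fold change of 0.21 (95% interval -0.01 to 0.42, adjusted p = 0.224 by edgeR's test). Counted together with Ifit3b it was 0.14 (adjusted p = 0.307). The transcript of Ifit3 is 1745 bases long, and the 3166 thymus genes in its length class (median 1550 bases) had a median log2 fold change of 0.13. Oasl2 lay between 64.5 and 68.0 CPM in Tol mice and between 64.8 and 77.3 CPM in WT (log2 fold change -0.09, adjusted p = 0.429).

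Of the GTPases, Gbp2 differed by 0.01 (95% interval -0.12 to 0.14), with 49.8 to 53.8 CPM in Tol thymus and 47.2 to 54.7 CPM in WT. Igtp, the member with the highest level, lay at 101 to 112 CPM in Tol mice and 86.5 to 111 CPM in WT (log2 fold change 0.07, adjusted p = 0.603 by edgeR's test). Iigp1 was at 26.7, 22.3, 26.4 and 28.5 CPM in Tol mice and at 36.6, 28.4, 28.9 and 27.7 CPM in WT. Its groups overlapped through Tol replicate 4, and the log2 fold change of -0.22 had an adjusted p of 0.213.

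Gvin1, a very large GTPase gene, was the member that fell in Tol thymus. It was at 38.9, 31.1, 41.1 and 42.1 CPM in the Tol libraries and at 63.1, 64.8, 52.5 and 58.1 CPM in those of WT. All Tol libraries lay below all WT libraries, as they did for 5.5% of all genes tested. The log2 fold change was -0.63 ± 0.09 (SE, 95% interval -0.84 to -0.43), that is 0.644 of the WT level, with an adjusted p of 0.0389 in edgeR's test. DESeq2 gave -0.64 (adjusted p = 9.75e-07), and a single edgeR fit of all 22 libraries gave -0.64 (adjusted p = 0.648). Over the 8 fits that each left out a library, the log2 fold change lay between -0.68 and -0.55, and the adjusted p was under 0.05 only without Tol replicate 1 (0.00783) or Tol replicate 3 (0.0365) and was 0.0519 to 0.205 in the other 6.

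Several measurements are given beside this difference. The transcript of Gvin1 is 9005 bases long, and log2 fold changes in Tol thymus fell with transcript length (Spearman's rho = -0.407 across 16199 genes, which are not independent replicates), with a median of -0.16 for genes over 8000 bases. Of 574 genes with a transcript at least as long, 14 were at or below the log2 fold change of Gvin1. With an offset for length and GC content the value was -0.50 (adjusted p = 0.0517). Among markers of dendritic cells and macrophages, 10 of 12 were lower and 2 higher in Tol thymus with none called, and they summed to 1010 to 1190 CPM in Tol mice and 1080 to 1290 CPM in WT. B cell markers summed to 71.7 to 80.5 CPM in Tol mice and 75.3 to 100 CPM in WT, with 6 of 8 lower. Thymocyte markers split 6 to 6 and summed to 11500 to 14100 CPM in Tol mice and 14000 to 15400 CPM in WT. Thymic epithelium markers went the other way, with 7 of 10 higher in Tol thymus. The dendritic cell and macrophage list shares Bst2 with the other type I interferon-induced genes. None of the markers in these lists was at 0, and their part in the result was not tested.

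Gvin1 also shares nearly all of its sequence with annotated copies, so its count depended on how reads were divided. Of the 8941 stretches of 65 bases (the read length) in its transcript, 98.6% also occur in transcripts of other genes, and 8746 of them occur in Gm4070. Summed over Gvin1 and Gm4070, the level was 65.4 ± 11.3 CPM in Tol thymus (49.7 to 74.9) and 95.6 ± 14.9 CPM in WT (76.7 to 109; mean ± SD, n = 4). The groups still did not overlap, but the log2 fold change was -0.55 with an adjusted p of 0.0833. It was -0.45 (adjusted p = 0.104) when all 10 genes that share a stretch with Gvin1 were counted together. In that sum the groups overlapped, at 163 to 269 CPM in Tol thymus and 243 to 336 CPM in WT. In cerebrum the division varied between libraries. WT replicate 2 had 25.1 CPM of Gvin1 and 0.257 CPM of Gm4070, WT replicate 4 had 3.6 and 11.3 CPM, and Tol replicate 1 had 3.74 and 10.6 CPM, while the sums over both genes lay between 14.3 and 26 CPM in the cerebrum libraries. The summed levels in cerebrum were 18.4 ± 5.48 CPM in Tol mice and 18 ± 4.9 CPM in WT. Among the other members, 757 of the 1681 stretches of Ifit3 also occur in Ifit3b, and 9.86% of those of Igtp and under 6% of those of each other member occur elsewhere.

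**Figure D3:**
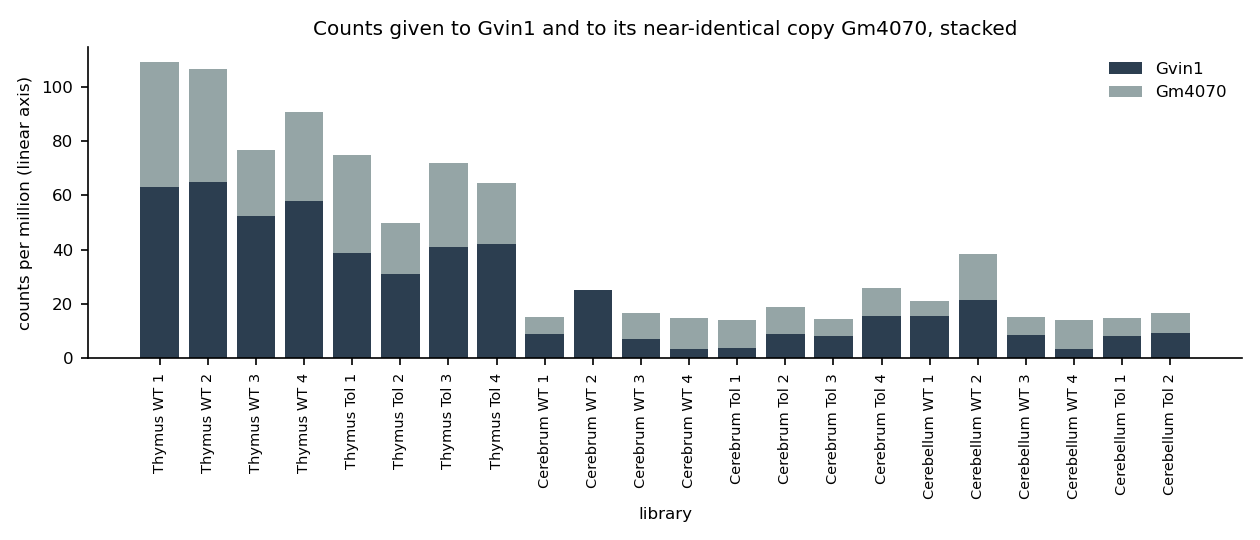
Level in CPM given to Gvin1 and to its near-identical copy Gm4070, stacked for each library on a linear axis. The sum lies between 49.7 and 74.9 in Tol thymus and between 76.7 and 109 in WT thymus, and Cerebrum WT replicate 2 has nearly all of its sum under Gvin1.

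In cerebrum, where the Tol transcript was several-fold more abundant than in thymus, 0 of the 9 members were called between Tol and WT, and 0.0% of the 15596 genes tested were called by edgeR. DESeq2 also called 0 members, and 183 of 24720 genes. At an unadjusted p under 0.05, 2 of the 9 members differed, against 9.66% of all genes, and both were higher in Tol. Of the members, 6 were above 0 and 3 below, with a median log2 fold change of 0.16 against -0.0049 over all genes.

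Ifit3 was at 8.30, 8.51, 7.55 and 9.50 CPM in Tol cerebrum and at 7.16, 7.01, 6.79 and 6.05 CPM in WT. All Tol libraries lay above all WT libraries, as they did for 3.29% of all genes. The log2 fold change was 0.33 ± 0.11 (SE, 95% interval 0.08 to 0.57), with an unadjusted p of 0.0155 and an adjusted p of 0.383 in edgeR's test. Together with Ifit3b the levels were 13.8 ± 0.903 CPM in Tol mice and 11.2 ± 1.57 CPM in WT, the groups overlapped, and the log2 fold change was 0.30 (adjusted p = 0.42).

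Iigp1 was at 2.33, 2.19, 1.63 and 3.43 CPM in Tol cerebrum and at 1.30, 1.22, 1.92 and 1.02 CPM in WT. The groups overlapped through Tol replicate 3 and WT replicate 3. Its log2 fold change of 0.79 ± 0.28 (SE, 95% interval 0.15 to 1.44) was the highest of the 9, with an unadjusted p of 0.0204 and an adjusted p of 0.407 in edgeR's test, and it was 0.58 without Tol replicate 4. The values for the other GTPases were 0.41 for Igtp, 0.15 for Gbp2 and -0.30 for Gvin1, and none had an adjusted p under 0.708. Oasl2 was at 0.35, Ifit1 at 0.16, Irf7 at -0.05 and Isg15 at -0.11, with adjusted p from 0.607 to 0.961. The 95% interval of Isg15, -0.76 to 0.53, spanned 0 with room for a change of either sign.

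Thymocyte markers summed to 35.5 CPM in Tol cerebrum replicate 4 and to 56.4 CPM in WT replicate 3, and to 11.3 to 16.3 CPM in the other cerebrum libraries. Cd4 alone made up 19.1 and 41.1 CPM of those sums. Microglia markers summed to 327 to 405 CPM in Tol mice and 330 to 417 CPM in WT, with 3 of 8 above 0. The part of these cells in the cerebrum values was not tested.

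In cerebellum, 0 of the 9 members were called by edgeR, and 0 had an unadjusted p under 0.05 in its test. DESeq2 also called 0 members, but it gave no adjusted p for Isg15. Over all genes edgeR called 0.0% of 16662, with 3.16% at an unadjusted p under 0.05, and DESeq2 called 9 of 24733. Ifit3 was at 12.3 and 15.6 CPM in the Tol libraries and at 12.7, 13.7, 8.92 and 5.76 CPM in those of WT. The groups overlapped for it and for every other member, and did not overlap for 10.5% of all genes. Its log2 fold change of 0.47 (95% interval -0.42 to 1.35) was the highest of the 9, and the lowest was -0.46 for Gvin1 (-2.11 to 1.18). The adjusted p of all members lay between 0.957 and 0.998, and the intervals were up to several times wider than in thymus.

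Without Tol replicate 2, whose neuron markers went against its label, the remaining Tol library gave log2 fold changes from -0.60 for Gvin1 to 0.51 for Iigp1, with Ifit3 at 0.26 and Gbp2 at 0.08. In that fit the single Tol library is assumed to vary like the WT libraries. Microglia markers summed to 127 and 238 CPM in Tol cerebellum replicates 1 and 2 and to 115 to 200 CPM in WT, with 8 of 8 markers above 0 (median log2 fold change 0.42), none called and none at 0. Their part in the cerebellum values was not tested.

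**Figure D4:**
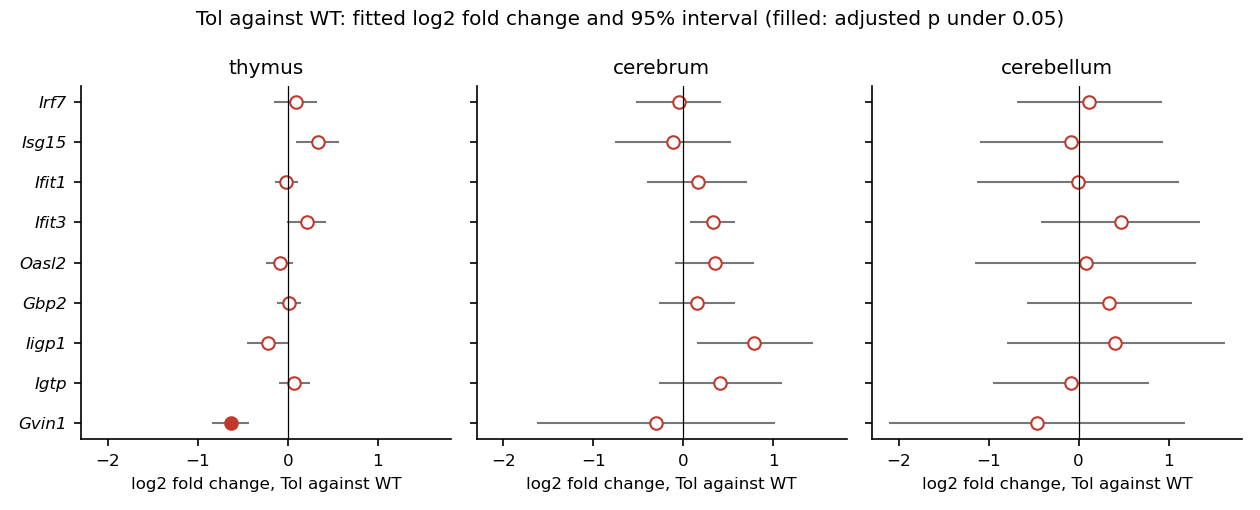
Log2 fold change of Tol against WT for each member in thymus, cerebrum and cerebellum, with the 95% interval from edgeR's quasi-likelihood fit, and a filled point where the adjusted p was under 0.05. Gvin1 in thymus (-0.63) is the single filled point, and the intervals widen from thymus to cerebellum.

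The effect of Tol was compared between organs by interaction terms in a fit of all 22 libraries. None of the 9 members was called by edgeR or DESeq2 in any of the 3 comparisons of organs, in which edgeR called 0.0% of 18946 genes, and 11.4%, 9.85% and 7.67% had an unadjusted p under 0.05. DESeq2 called 104, 115 and 18 of 28577 genes in them (cerebrum minus thymus, cerebellum minus thymus and cerebellum minus cerebrum). The difference for Iigp1 between cerebrum and thymus was 1.01 ± 0.39 on the log2 scale (SE, 95% interval 0.19 to 1.83), with an unadjusted p of 0.0189 and an adjusted p of 0.324. It was the only member with an unadjusted p under 0.05 in these 3 comparisons. For the other 8 members that difference lay between -0.45 and 0.43. The fall of Gvin1 was therefore called in thymus but was not shown to differ from the brain.

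Across the pathway lists, 0 genes were called in any Tol against WT comparison by edgeR. For receptors and signalling, sensors, other type I interferon-induced genes and other GTPases in that order, 5 of 18, 4 of 14, 10 of 40 and 4 of 22 genes had an unadjusted p under 0.05 in thymus, near the 24.4% of all genes. In cerebrum they were 1 of 16, 0 of 13, 2 of 35 and 1 of 15, against 9.66% of all genes, and in cerebellum 1 of 18, 0 of 14, 1 of 38 and 0 of 20, against 3.16%. In thymus, genes for receptors and signalling had 7 values above 0 and 11 below, with a median of -0.05, and the kinase genes Jak2 (-0.28, adjusted p = 0.0733) and Jak1 (-0.23, adjusted p = 0.1) had the lowest p. The nucleic acid sensors split 9 to 5 with a median of 0.02, with Tlr3 (-0.37, adjusted p = 0.0869) and Mavs (-0.16, adjusted p = 0.15) first. Of the 40 other type I interferon-induced genes, 22 were above 0 and 18 below, with a median of 0.04, and Ddx60 (0.33, adjusted p = 0.115) and Dtx3l (-0.22, adjusted p = 0.123) came first. Of the 22 other GTPases tested, 9 were above 0 and 13 below, and the lowest p belonged to 9930111J21Rik1 (-0.71, adjusted p = 0.102) and Gm1966 (-0.39, adjusted p = 0.133), which is among the genes that share stretches with Gvin1. DESeq2 called 2 receptor and signalling genes, 1 sensor and 1 GTPase in thymus, where it called 1252 genes in all, and 0 genes of these lists in the brain regions.

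In cerebrum, all 15 of the other GTPases tested had values above 0, with a median of 0.24 and a lowest adjusted p of 0.51, for Gbp5 (0.33). Gbp4 was next (0.63, adjusted p = 0.536). Tol replicate 4 had the highest summed level of this list among the cerebrum libraries (113 CPM). Without that library, 11 of 15 were above 0 with a median of 0.13. The fits without another library are not given for this list. Of 35 other type I interferon-induced genes 26 were above 0 (median 0.15). The 2 with the lowest p were Phf11d (1.17, adjusted p = 0.377) and the antiviral GTPase gene Mx1 (0.72, adjusted p = 0.387). In both, all Tol libraries lay above all WT libraries, as they did for 3.29% of all genes. Receptor and signalling genes split 10 to 6 (Usp18 0.78, adjusted p = 0.392, and Irf3 -0.20, adjusted p = 0.629). The sensors split 9 to 4 (Ifih1 0.16, adjusted p = 0.761, and Tlr9 0.24, adjusted p = 0.762).

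In cerebellum, of the genes tested, 10 of 18, 7 of 14, 18 of 38 and 11 of 20 were above 0 for receptors and signalling, sensors, other type I interferon-induced genes and other GTPases. Ifitm1, an inhibitor of viral entry, was at 1.04 (unadjusted p = 0.0106) and Irf9, the DNA-binding subunit of the type I signalling complex, at -0.62 (unadjusted p = 0.0165, adjusted p = 0.957 in edgeR's test). The other genes with the lowest p of their lists were the lambda interferon receptor gene Ifnlr1 (1.05), the sensor pathway genes Adar (0.30) and Tmem173 (0.46), Samhd1 (-0.20), a nucleotide hydrolase gene, and the GTPase genes Gm4951 (0.97) and 9930111J21Rik1 (0.81).

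The members' deviations within groups were compared from library to library. Taken as deviations from the group mean of log2(CPM + 1), all 36 pairs of members were positively correlated over the 22 libraries, with a median Pearson's r of 0.582, from 0.227 for Isg15 with Gvin1 to 0.887 for Ifit3 with Oasl2. These are descriptions, since the genes of a pair share the library, its depth and its tissue composition. The median r was 0.402 in thymus (26 of 36 pairs positive), 0.321 in cerebrum (31 of 36) and 0.875 over the 6 cerebellum libraries (36 of 36). The lowest pairs were Ifit1 with Gbp2 in thymus (-0.73), where Ifit1 was also negative with Gvin1 (-0.661) and Igtp (-0.484), and Irf7 with Iigp1 in cerebrum (-0.465). The spread was greatest in WT cerebellum, where the mean deviation of the members ran from -0.52 in replicate 4 to 0.56 in replicate 2, and least in Tol thymus, where it ran from -0.07 to 0.07 among groups of 4. In WT cerebrum it ran from -0.31 in replicate 4 to 0.27 in replicate 2. The largest deviation of any member in these libraries was that of Gvin1, at -1.109 in replicate 4 and 1.395 in replicate 2. As given above, the division of reads between Gvin1 and Gm4070 differed between them. The WT cerebellum libraries at the ends of that range, replicates 2 and 4, were also those with choroid plexus markers, 1340 and 4810 CPM, and their part in the spread was not tested.

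**Figure D5:**
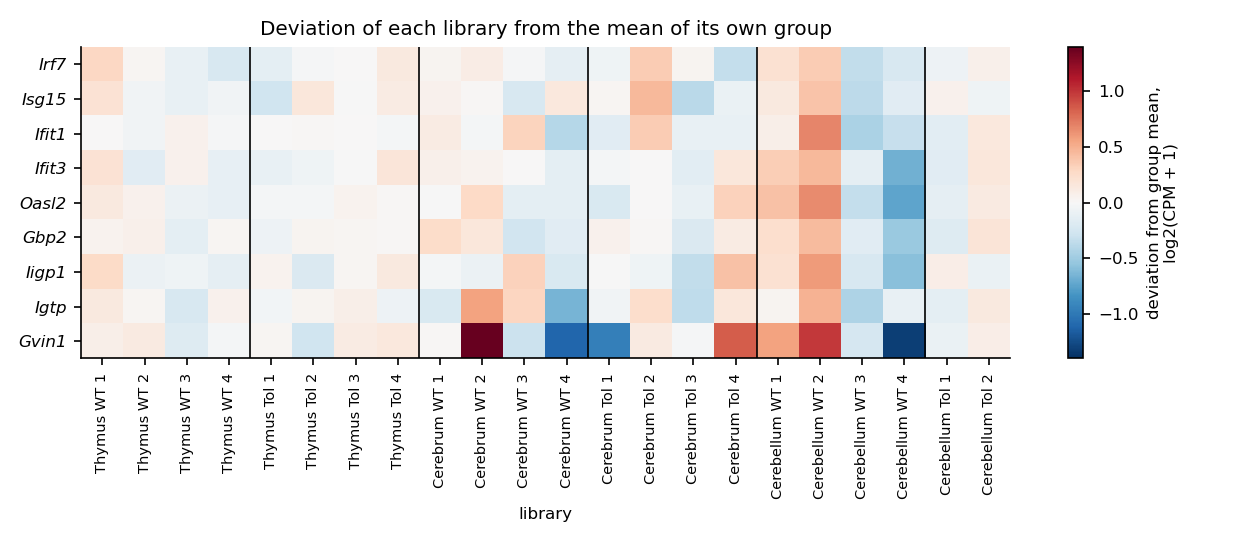
Deviation of each library from the mean of its own organ and genotype group for each member, on the log2(CPM + 1) scale (red above, blue below). The cerebellum WT replicates 2 and 4 stand out in nearly every member, with mean deviations of 0.56 and -0.52. Gvin1 varies most in cerebrum, where the division of its reads with Gm4070 differed between libraries.

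The genes outside the members whose deviations were most like their mean, over the 22 libraries, were Gbp3 (r = 0.852), Ifi44 (0.837), Irgm2 (0.833), H2-Q4 (0.819), an MHC class I gene, and Sp100 (0.817), while the median over all other genes was -0.0205. By list, the median r was highest for endothelium markers (0.611). It was 0.476 for the other GTPases, 0.473 for the other type I interferon-induced genes, 0.442 for microglia markers and 0.438 for red blood cell markers. The lowest median, -0.329, was that of cerebellum neuron markers. The part of tissue composition in these values was not tested. Over the 8 thymus libraries alone the genes most like the members were Slamf9 (0.992), Cd109 (0.984), Inpp5j (0.98), Ly6a (0.969) and Irak2 (0.968). Over the 8 cerebrum libraries they were Cthrc1, Gm31166, Slc31a1, Galnt1 and Yy1 (0.949 or more). Over the 6 cerebellum libraries they were Gm10297, Ifi207, Rps2-ps10, Gm17906 and Gm20939 (0.994 or more). None of these single-organ genes was in a pathway list. They are the highest of all genes compared over few libraries, and how often such values arise by chance was not tested.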

How the data were processed

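RNA was extracted from frozen thymus, cerebrum and cerebellum, poly(A)-selected stranded libraries were sequenced in single reads of 65 bases, and, per the labels and the study's methods, reads were quantified with Salmon 0.14.1 on GRCm38 transcripts plus the Tol transcript. The authors deposited a table of estimated counts (whole numbers) for each organ, and their notes also name edgeR 3.9. Salmon divides reads that match several transcripts by likelihood, so genes with near-identical copies are uncertain. Genotype and replicate number came from the labels, and every column was matched by organ, genotype and number.

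Counts were tested with edgeR 4.0.16 (R 4.3.3; quasi-likelihood test, TMM scaling, filterByExpr, Benjamini-Hochberg adjustment over all genes tested, threshold 0.05). Genotypes were compared in each organ separately, organs were compared in WT mice, and interactions were fitted on all 22 libraries. All 9 members passed the count filter in every comparison. CPM used TMM factors over all libraries (0.844 to 1.205), and deviations used a pseudocount of 1. Intervals and p-values measure the spread between these libraries. Scripts were tested on simulated counts.

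The members and gene lists were chosen with earlier results of these data known. Besides the members, the text names the Tol transcript, the 2 genes with the lowest p of each list in each Tol comparison, the 2 with the largest change in each direction in WT thymus against cerebrum, and the 5 genes most like the members. Alternatives were DESeq2 1.42.0, its size factors, other filters, a replicate block, a length and GC offset (mgcv 1.9.3), a single fit of all libraries, another pseudocount, rank correlation and leaving out each library. Counting copies together and leaving out the WT cerebellum libraries with choroid plexus markers were chosen after seeing the data. Shared 65-base stretches and lengths came from GENCODE transcripts of GRCm38.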

Additional observations from a re-analysis of the deposited data

Results flagged for a closer look

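Of 45 sets of 4 libraries (a member in an organ and genotype group), 2 held a library that stood far from the other 3 by Dixon's criterion, which flags about 1 in 20 sets by chance. Ifit1 was at 3.91 CPM in Cerebrum Tol replicate 2, while the other 3 lay between 2.43 and 2.57 CPM. Iigp1 was at 36.6 CPM in Thymus WT replicate 1, while the other 3 lay between 27.7 and 28.9 CPM, and without that library the log2 fold change of Iigp1 in Tol thymus was -0.12.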

How the results depend on the processing

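The 9 members remained higher in WT thymus than in either WT brain region under every alternative run. In cerebrum, cerebellum and the interactions 0 members were called in any alternative. DESeq2 gave no adjusted p for Irf7, Isg15, Ifit1 and Iigp1 in cerebrum or for Isg15 in cerebellum. Over all members and alternatives with an adjusted p, 1548 of 1660 values kept their direction and side of the threshold. The number of members called in Tol thymus fell from 1 to 0 with a replicate block, a length and GC offset, both together, a single fit of all 22 libraries and each counting of copies together, and lay between 0 and 2 when a library was left out. All genes called there numbered 16, against 1252 with DESeq2, 130 with no filter and 85 with a stricter one, and 0 to 2978 when a library was left out, with 2978 without Tol replicate 1 and 97 without Tol replicate 3. The number called between WT cerebellum and WT cerebrum fell from 1 to 0 with DESeq2's size factors in edgeR and with no filter, and lay between 0 and 3 when a library was left out. Median correlations were 0.57, 0.399, 0.326 and 0.869 with a pseudocount of 0.1 and 0.532, 0.333, 0.357 and 0.886 with Spearman's rho, for all libraries, thymus, cerebrum and cerebellum. Why these values moved was not tested.

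Libraries that share a replicate number did not meet the criterion for pairing (every correlation of deviations over 0.1), since Tol and WT libraries of 1 number correlated at -0.101 to 0.0531 in thymus, -0.273 to 0.302 in cerebrum and -0.167 and 0.6 in cerebellum. Across organs, WT libraries of 1 number correlated at -0.00496 to 0.0584 (thymus and cerebrum), 0.0164 to 0.0672 (thymus and cerebellum) and 0.0162 to 0.108 (cerebrum and cerebellum), above 0 in all pairs except 1, and Tol libraries at -0.152 to 0.106. With the replicate block, Gvin1 in thymus was at -0.64 with an adjusted p of 0.12, 5 genes were called there in all, and with the block and the offset the adjusted p was 0.103. The block turned the cerebellum values of Irf7 to -0.22, Oasl2 to -0.43, Gbp2 to -0.03 and Iigp1 to -0.05 (with the offset, Irf7 -0.20, Oasl2 -0.39 and Iigp1 -0.02), the cerebellum minus thymus values of Irf7 to -0.12 and Gvin1 to -0.01, and the cerebellum minus cerebrum value of Isg15 to -0.07.

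Other log2 values that changed sign were Gbp2 in thymus with the offset, with or without the block (-0.01), Gvin1 in cerebrum with Gm4070 (0.02) or all copies (0.07), Isg15, Ifit1 and Igtp in cerebellum without the 2 WT libraries with choroid plexus markers (0.12, 0.27 and 0.17), and Ifit1 in cerebellum minus thymus with DESeq2 or its size factors (0.05) or no filter (0.01). Leaving out a library gave ranges that cross 0 in thymus for Ifit1 (-0.03 to 0.02) and Gbp2 (-0.02 to 0.05), in cerebrum for Irf7 (-0.23 to 0.08), Isg15 (-0.40 to 0.07), Ifit1 (-0.03 to 0.31) and Gvin1 (-0.68 to 0.47), and in cerebellum for Irf7 (-0.02 to 0.27), Isg15 (-0.26 to 0.16), Ifit1 (-0.24 to 0.35), Oasl2 (-0.16 to 0.36) and Igtp (-0.30 to 0.14). Between WT cerebellum and WT cerebrum they crossed 0 for Irf7 (-0.01 to 0.27), Ifit1 (-0.01 to 0.52) and Gvin1 (-0.26 to 0.90). For cerebrum minus thymus they did for Ifit1 (-0.02 to 0.33) and Gvin1 (-0.04 to 1.09), for cerebellum minus thymus for Irf7 (-0.13 to 0.19), Ifit1 (-0.21 to 0.36), Oasl2 (-0.09 to 0.45), Igtp (-0.36 to 0.07) and Gvin1 (-0.16 to 0.56), and for cerebellum minus cerebrum for Irf7 (-0.01 to 0.33), Isg15 (-0.17 to 0.31), Ifit1 (-0.39 to 0.19), Ifit3 (-0.08 to 0.29), Oasl2 (-0.52 to 0.01), Gbp2 (-0.06 to 0.38) and Gvin1 (-0.94 to 0.23). Ifit3 had 132 to 387 counts in the cerebellum libraries and 101 to 171 in those of cerebrum, with an SE of 0.36 and 0.11. Cerebellum had 2 Tol libraries and cerebrum had 4, and the source of the wider interval was not tested.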
